A study of Mus musculus with 7 samples.

Results

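Chromatin accessibility near 7 regulators of endoderm, Foxa1, Foxa2, Sox17, Gata4, Gata6, Hhex and Cer1, was compared between wild-type (WT) and Smad2/3 double knockout (DKO) epiblast-like cells (EpiLCs). EpiLCs are cells obtained from naive embryonic stem cells (ESCs) that model the primed epiblast before gastrulation. Accessibility was measured by ATAC-seq, in which the Tn5 transposase cuts open chromatin and tags it for sequencing, so that reads collect at active promoters and enhancers. The members are the listed accessible sites whose midpoint lies within 50 kb of a transcription start site (TSS) of 1 of these genes in the curated RefSeq annotation of mm10. There were 38 such sites among the 75880 in the authors' deposited table, comprising 10 at Foxa1, 9 at Foxa2, 5 at Sox17, 4 each at Gata4 and Cer1, and 3 each at Gata6 and Hhex. For 33 of the 38, the nearest TSS of any gene was that of the listed gene.

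All cells were of the 129/Sv//Ev strain and were grown for 48 h in medium with 12 ng/ml Fgf2 and 20 ng/ml activin A. The WT group held 3 separate differentiations of the ESC clone CCE. The DKO group held 3 differentiations of the clone KT15.1F6, which is homozygous for the targeted Smad2 allele tm1Rob and for a CRISPR deletion around exon 1 of Smad3. With 1 clone per genotype, a difference between the clones and an effect of the genotype cannot be told apart. A single library of WT genomic DNA treated with Tn5 served the authors as a control when they called the sites.

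The endoderm lineages of the mouse embryo arise at separate times, first the primitive endoderm of the blastocyst, which gives the visceral and parietal endoderm, and later the definitive endoderm, which leaves the anterior primitive streak during gastrulation. Nodal, a ligand of the TGF-beta family that activin A can replace in culture, acts through phosphorylated Smad2 and Smad3, which enter the nucleus with Smad4 and bind DNA together with partners such as FoxH1. Graded Nodal signaling is needed for the anterior streak and its endoderm. Foxa1 and Foxa2 are forkhead pioneer factors, able to bind nucleosomal DNA. Sox17 is an HMG box factor of definitive and primitive endoderm. Gata4 and Gata6 are zinc finger factors of primitive endoderm, heart and gut. Hhex is a homeodomain factor of anterior visceral and definitive endoderm, and Cer1 is a secreted antagonist of Nodal and BMP ligands that the anterior visceral endoderm produces.

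The level of a site is given as its concentration, the log2 of the mean normalized reads over the 3 libraries of a genotype, as deposited by the authors. A difference is the DKO concentration minus the WT concentration, in log2 units, so that negative values mean lower accessibility in DKO. For each site the table holds a WT mean and a DKO mean, without the values of the single libraries. For this reason no SD or standard error can be given for any site, and the depth behind each mean is unknown. The table also holds the authors' own test of each site, which was not used here, so the differences are given without a test. Concentrations are listed to 0.01, so each difference carries a rounding error of up to 0.01. A site was called lower or higher when it differed by more than 1.5-fold (0.585 in log2) and its mean concentration over both genotypes was at least 4, which is 16 normalized reads. These calls describe size, not statistical significance.

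Of the 30 members at or above that minimum, 6 were called lower in DKO, and 0 were called higher. Their central 300 bp are shown because they carry the largest differences among the members at or above the minimum. The windows are on the plus strand of GRCm38.p6, the assembly that mm10 names, and were read from the RefSeq genome. Capitals mark matches, on either strand, to 8 of the 9 strings searched, namely the FoxH1 string TGTGGATT, the octamer ATGCAAAT bound by Oct4 and related factors, the Otx2 string GGATTA, the forkhead string TGTTTAC, the string AGATAA of Gata factors, the string CATTGT of Sox factors, the T-box string TCACACC and the Smad palindrome GTCTAGAC. The short Smad string CAGAC is frequent and was left in lower case.
Foxa2, 6346 bp upstream, chr2:148053166-148053465: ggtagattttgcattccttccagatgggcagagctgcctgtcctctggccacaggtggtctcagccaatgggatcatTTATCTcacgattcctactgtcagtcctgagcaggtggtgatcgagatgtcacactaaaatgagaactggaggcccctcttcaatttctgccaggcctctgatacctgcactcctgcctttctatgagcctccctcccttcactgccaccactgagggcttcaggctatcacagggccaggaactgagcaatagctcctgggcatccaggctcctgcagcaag
Foxa2, 1796 bp upstream, chr2:148048616-148048915: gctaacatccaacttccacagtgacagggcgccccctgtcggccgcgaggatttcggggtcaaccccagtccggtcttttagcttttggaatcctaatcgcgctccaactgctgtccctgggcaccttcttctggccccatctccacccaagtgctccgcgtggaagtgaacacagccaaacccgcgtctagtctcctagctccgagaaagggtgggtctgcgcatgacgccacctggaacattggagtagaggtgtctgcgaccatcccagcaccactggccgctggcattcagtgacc
Foxa1, 4349 bp upstream, chr12:57550311-57550610: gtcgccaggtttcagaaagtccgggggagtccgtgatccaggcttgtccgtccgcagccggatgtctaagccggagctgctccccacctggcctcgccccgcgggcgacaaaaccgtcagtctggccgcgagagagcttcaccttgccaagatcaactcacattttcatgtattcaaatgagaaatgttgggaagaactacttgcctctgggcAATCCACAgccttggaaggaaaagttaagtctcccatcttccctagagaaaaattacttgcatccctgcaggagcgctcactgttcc
Foxa1, 11131 bp downstream, chr12:57534831-57535130: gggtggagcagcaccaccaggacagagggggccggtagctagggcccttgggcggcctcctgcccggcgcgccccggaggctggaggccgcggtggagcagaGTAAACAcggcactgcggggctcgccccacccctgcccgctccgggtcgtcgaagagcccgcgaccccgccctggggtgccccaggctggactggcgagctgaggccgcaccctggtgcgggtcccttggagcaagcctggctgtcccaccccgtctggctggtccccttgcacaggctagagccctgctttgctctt
Cer1, 1189 bp upstream, chr4:82886191-82886490: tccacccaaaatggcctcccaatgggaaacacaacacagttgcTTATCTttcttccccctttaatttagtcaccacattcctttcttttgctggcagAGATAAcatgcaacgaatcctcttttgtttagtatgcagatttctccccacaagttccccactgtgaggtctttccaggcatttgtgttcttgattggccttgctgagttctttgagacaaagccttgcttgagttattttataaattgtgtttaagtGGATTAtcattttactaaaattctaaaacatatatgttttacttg
Sox17, 46841 bp upstream, chr1:4544046-4544345: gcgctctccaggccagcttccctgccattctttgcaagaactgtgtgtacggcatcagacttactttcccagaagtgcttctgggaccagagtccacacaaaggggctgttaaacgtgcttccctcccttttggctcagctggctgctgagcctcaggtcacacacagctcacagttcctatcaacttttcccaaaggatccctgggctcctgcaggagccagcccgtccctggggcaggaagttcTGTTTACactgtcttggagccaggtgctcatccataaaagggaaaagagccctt

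The window upstream of Cer1 held 2 Gata strings and 1 Otx2 string. At Foxa2, the window 6346 bp upstream held 1 Gata string, and the window 1796 bp upstream held no capital match. The window 4349 bp upstream of Foxa1 held the string of FoxH1, the DNA-binding partner of Smad2/3, on the minus strand, and was the 1 member of 38 that did. The windows 11131 bp downstream of Foxa1 and 46841 bp upstream of Sox17 each held 1 forkhead string. A match is a description of the letters in the window and does not show that a factor binds there.

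The checks of the study's own references came out as follows. The site centred 221 bp upstream of the Smad3 TSS also covers that TSS, at the region around exon 1 that was deleted. Its concentration was 5.42 in WT and -0.10 in DKO, the lowest value listed in that genotype, at which 164 sites stand. Deleted DNA yields no reads, so this value cannot be read as a loss of accessibility. Upstream of Lefty2, a direct Nodal target, the site centred 3858 bp from the TSS had 8.09 in WT and 6.39 in DKO, a difference of -1.70. The other Lefty2 site, 1292 bp downstream, had 3.37 and 3.43. At the TSS of Smad2, the gene whose older targeted allele the clone carries, the concentrations were 8.35 in WT and 8.28 in DKO. The position of that mutation within the gene is not given in the sources used here. Promoter accessibility did not separate cell types, since 18 of 20 markers of epiblast, naive, trophoblast, neural and mesodermal cells had a listed site within 1 kb of a TSS, among them all 5 trophoblast markers. Of the epiblast markers, 4 of 5 had such a site, and Otx2 did not.

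The sites near the endoderm regulators leaned towards lower accessibility in DKO. The 6 sites called lower are 20.0% of the 30 at or above the minimum, against 12.4% of all 60226 such sites. None of these 30 was called higher, against 5.4% of all sites. With no minimum, 8 of 38 were past 1.5-fold downwards, or 21.1%, against 16.0% of all sites, and 0 were past it upwards, against 8.51%. The difference was below 0 at 29 of the 38 members, or 76.3%, against 57.4% of all sites. The median difference was -0.34 for the members and -0.08 for all sites, and -0.24 and -0.07 for those at or above the minimum. Of the 8 members under the minimum, the median was -0.50. The lean of the median rested in large part on Foxa2, while the shares below 0 and called lower changed less without it. Without its sites the median of the members was -0.17, 20 of 29 were below 0 (69.0%), and 4 of the 22 at or above the minimum were called lower (18.2%), while leaving out any other gene gave medians from -0.39 to -0.31. Sites of one locus share a chromosome region and are not independent replicates.

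**Figure D1:**
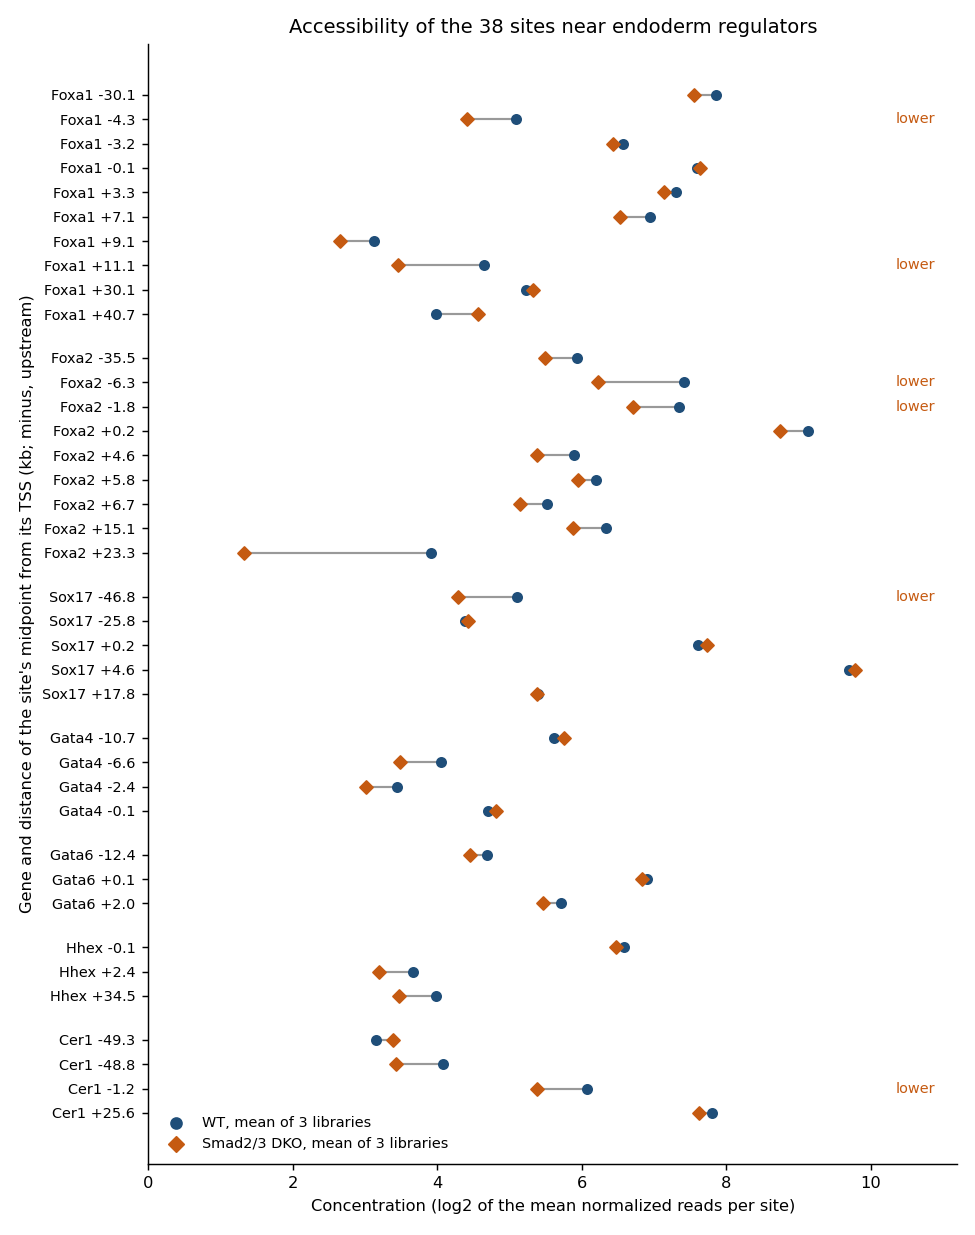
Concentration (log2 of the mean normalized reads) of each of the 38 sites in WT (circles) and Smad2/3 DKO (diamonds), 1 mean of 3 libraries each with no error available, grouped by gene and ordered by distance from the TSS in kb. The 6 sites called lower are marked, and at Foxa2 the DKO mean lies below the WT mean at all 9 sites.

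Foxa2, which is required for the node, notochord and definitive endoderm, was lower at every site. All 9 sites had a lower concentration in DKO than in WT, with a median difference of -0.46. Summed over the sites, which cover 8410 bp, the normalized reads were 1230 in WT and 852 in DKO, a log2 ratio of -0.53. Of 18620 genes with at least 3 sites within 50 kb, 4.74% had a median as low or lower, although neighbouring genes share sites. This share was 4.5% for Hhex, with 1 of 3 sites at or above the minimum, and 6.15% for Cer1, with 2 of 4. For the rest of the group it was 17.7% to 63.9%. A low rank was thus also reached by genes with mostly weak or few sites. The medians of the other genes of the group ranged from -0.47 at Hhex to 0.05 at Sox17.

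The largest difference at Foxa2 among sites at or above the minimum lay 6346 bp upstream of the TSS (chr2:148052780-148053850, intergenic). Here the normalized reads were 170 in WT and 74.5 in DKO, with concentrations of 7.41 and 6.22 and a difference of -1.19. Of the 4357 sites of like level, within 0.25 of its mean concentration, 0.849% had a difference as low. Such sites were matched on level alone and include promoter sites. Among all sites at or above the minimum, 3.01% of those within 1 kb of a TSS were called lower, against 15.6% of those over 5 kb away. The share among distal sites of like level was not computed. A second intergenic site, 1796 bp upstream (chr2:148048340-148049190), had 162 reads in WT and 105 in DKO and a difference of -0.63, which 4.19% of sites of like level reached. Of their windows printed above, the first holds a Gata string and the other none of the capital matches.

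The broad site over the Foxa2 promoter (chr2:148043680-148046880, 3200 bp wide) is the strongest of the locus. It covers 2 of the gene's 3 annotated TSSs, ends short of the most upstream TSS, and has its midpoint in the UTR. Its concentration was 9.13 in WT and 8.74 in DKO, or 560 and 428 normalized reads, a difference of -0.39. This is short of 1.5-fold, but strong sites varied little, and only 2.22% of the 901 sites of like level were as low. Among all sites with a mean concentration from 8 to 9, the 5th percentile of the difference was -0.35 and the 95th was 0.27.

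Downstream of Foxa2, 4 sites at 4559 to 15074 bp had differences of -0.51, -0.25, -0.37 and -0.46, in order of distance. The site 35506 bp upstream had 5.94 in WT and 5.49 in DKO, a difference of -0.45. These 5 sites were all intergenic, and none reached 1.5-fold. A weak site 23314 bp downstream (chr2:148022070-148022230) had 3.91 in WT and 1.33 in DKO, or 15.0 and 2.51 normalized reads. Its difference of -2.58 was the lowest of all members, but its mean concentration of 3.13 was under the minimum, and from 3 to 4 the 5th percentile of all sites was -1.58. Matched on level alone, 4 of the 38 members were among the lowest 5% of sites of like level, and all 4 lay at Foxa2.

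Lower values were not limited to the surroundings of Foxa2. At 50 to 500 kb from its TSSs, 35 of 40 sites had a difference below 0, with a median of -0.41, close to the -0.46 of the sites within 50 kb. By distance, the median was -0.45 up to 10 kb and -0.46 from there to 50 kb. It was -0.34 between 50 and 100 kb, -0.45 between 100 and 200 kb and -0.41 between 200 and 500 kb. It came closest to 0 beyond 500 kb, up to 1000 kb, at -0.21. After the median of -0.41 at 50 to 500 kb was subtracted, the median of the Foxa2 sites was -0.05. On chromosome 2 as a whole the median of 5925 sites was -0.11. The differences at the Foxa2 promoter and 1796 bp upstream were near the median of -0.41 over all sites at 50 to 500 kb. That median does not separate promoters from other sites. After its subtraction the site 1796 bp upstream was at -0.22, whereas the site 6346 bp upstream remained past 1.5-fold. The 16 promoter sites within 1 Mb, that of Foxa2 included, had a median of -0.12, and 13 were below 0. Their values ranged from -1.27 to 1.84, both at weak sites of Cd93. Napb and Gzf1 were at -0.10, Pax1 at -0.26 and the promoter site shared by Nkx2-2 at 0.31. Among these promoter sites that of Foxa2, at -0.39, was lower than all but the weak Cd93 site at -1.27. The part of the wider region in the values at Foxa2 was not tested.

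**Figure D2:**
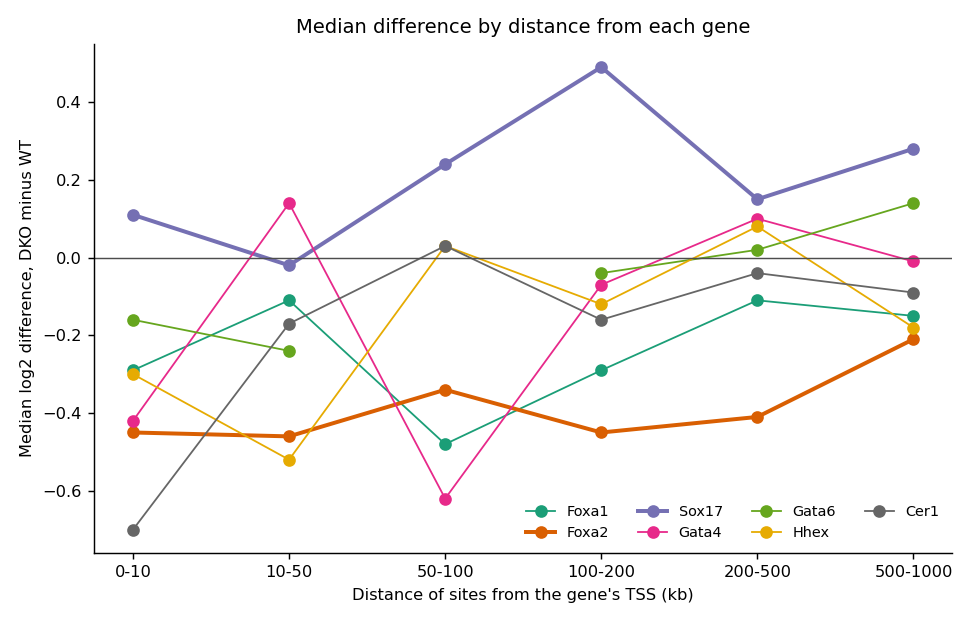
Median log2 difference (DKO minus WT) of all listed sites in 6 ranges of distance (kb) from each gene's TSS, 1 line per gene, with Foxa2 and Sox17 drawn thicker. Foxa2 stays between -0.46 and -0.34 out to 500 kb and Sox17 lies at -0.02 or above throughout, while some points rest on 1 to 3 sites, and Gata6 has none at 50 to 100 kb.

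Foxa1, the close relative of Foxa2 that acts with it in liver and lung, had 10 sites and a mixed pattern. Differences ranged from -1.19 to 0.58 with a median of -0.24, and 7 of the 10 were below 0. The promoter site (chr12:57545190-57547160, centred 64 bp upstream of the TSS) had 7.60 in WT and 7.64 in DKO, a difference of 0.04. The site with the highest WT level, 30129 bp upstream in a coding exon of Ttc6, had 7.86 in WT and 7.55 in DKO.

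Of the 2 sites called lower at Foxa1, the one 4349 bp upstream (chr12:57550220-57550700, intergenic) had 34.1 normalized reads in WT and 21.4 in DKO, a difference of -0.67. This is the site with the FoxH1 string. A difference as low was found at 13.4% of sites of like level, so it is common at this level. The other, 11131 bp downstream (chr12:57534840-57535120, intergenic), had 25.1 reads in WT and 11.0 in DKO, a difference of -1.19 that 5.88% of sites of like level reached. It is a narrow site of 280 bp, and 73.0% of the bases in its window are G or C.

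The neighbouring sites at Foxa1 were closer to 0. Sites 3209 bp upstream and 3256 bp downstream, the latter in the coding exon, had differences of -0.13 and -0.16. At 7091 bp downstream the difference was -0.42, and at 9141 bp it was -0.48 at a WT concentration of only 3.13. The 2 farthest sites downstream were higher in DKO, by 0.09 at 30116 bp and by 0.58 at 40681 bp, where 3.99 in WT stood against 4.57 in DKO. The latter lies within the rounding error of the 1.5-fold limit. Over the whole locus, summed reads were 924 in WT and 810 in DKO, a log2 ratio of -0.19.

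**Figure D3:**
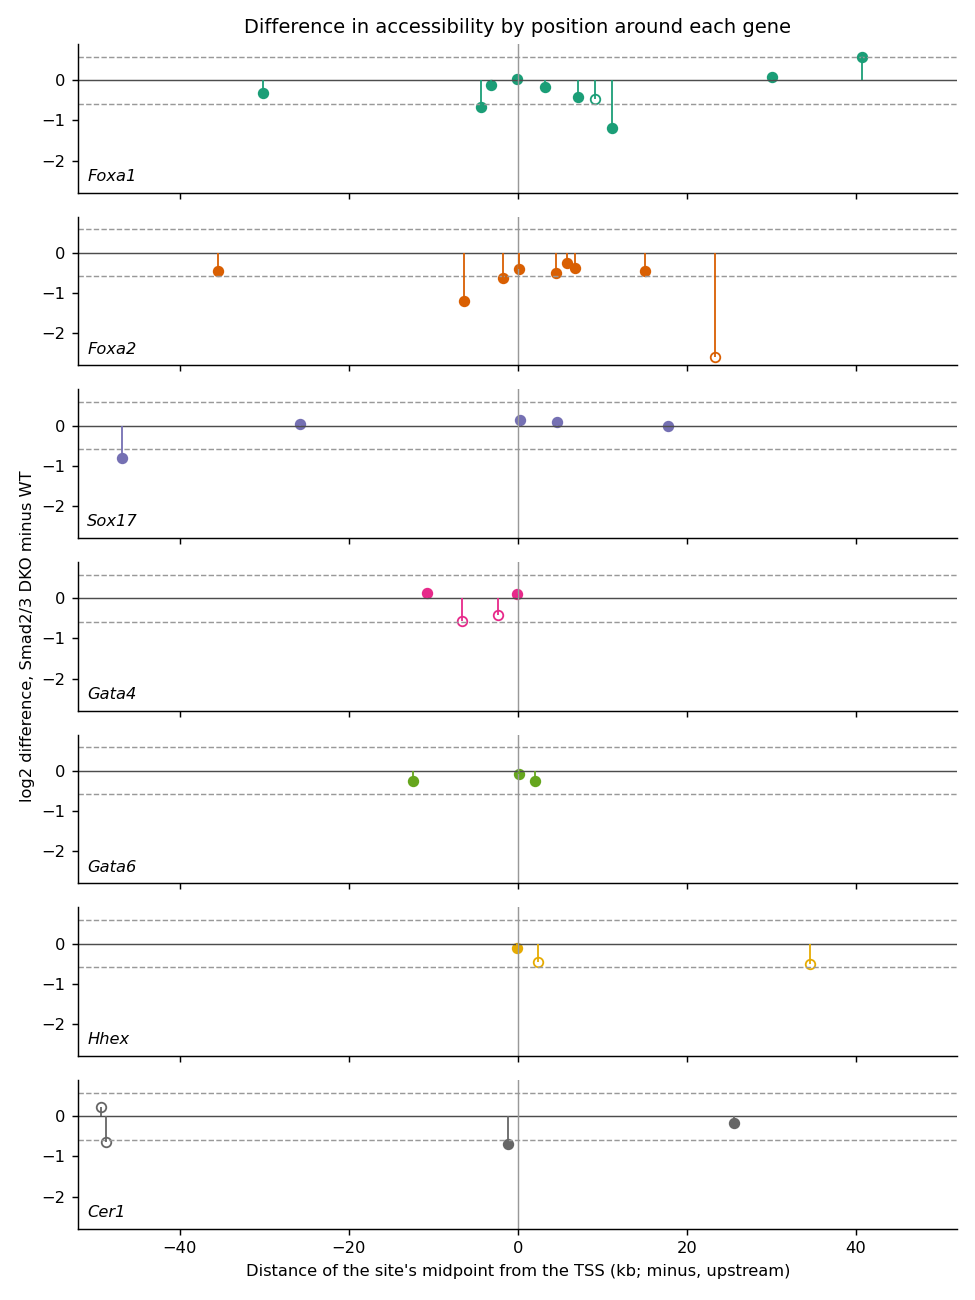
Log2 difference (DKO minus WT) of each site against the distance of its midpoint from the TSS in kb (minus, upstream), 1 panel per gene, with open symbols for a mean concentration under 4 and dashed lines at 1.5-fold. Sites past the lower line with filled symbols lie at Foxa1, Foxa2, Sox17 and Cer1, and no site passes the upper line.

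Sox17 was the 1 gene of the group with a median above 0, at 0.05. Its strongest site, and the strongest of all 38, lies in an intron 4639 bp downstream of the TSS (chr1:4491600-4493830), with 832 normalized reads in WT and 879 in DKO. The difference there was 0.08. The promoter site, 249 bp downstream, had 7.61 in WT and 7.74 in DKO, a difference of 0.13. At 25781 bp upstream and 17784 bp downstream, the differences were 0.05 and -0.02.

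Only 1 Sox17 site was called. It lies 46841 bp upstream (chr1:4543990-4544400, intergenic), with 34.3 normalized reads in WT and 19.6 in DKO and a difference of -0.81, which 9.34% of sites of like level reached. The sites at 50 to 500 kb from Sox17 had a median of 0.21, and only 11 of 41 were below 0. All 8 promoter sites within 1 Mb, that of Sox17 included, were higher in DKO, by 0.06 to 0.43, while the median over chromosome 1 was -0.08. Against the median of its own surroundings, the median of the Sox17 sites was -0.16 in place of 0.05, so its sign depends on this reference. What sets the level of this region was not tested.

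At the Gata genes no site was called in either direction. Gata4 had 4 weak sites, of which 2 reached the minimum. Its promoter site (chr14:63245170-63245500, 64 bp upstream of the TSS) had 26.2 normalized reads in WT and 28.1 in DKO, a difference of 0.10. The site 10744 bp upstream was also slightly higher in DKO, at 0.14, and those at 6604 and 2364 bp upstream had differences of -0.56 and -0.42 at concentrations near 4 or below. The median of -0.16 therefore turned to 0.12 when only the 2 sites at or above the minimum were kept.

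Gata6 had 3 sites, each lower in DKO by a small amount. The promoter site (chr18:11051980-11053320, 140 bp downstream of the TSS) had 6.91 in WT and 6.83 in DKO. It also covers the TSS of the antisense transcript Gata6os, so the 2 promoters cannot be separated. The sites 12390 bp upstream and 2010 bp downstream both had a difference of -0.24. Among sites of like level, 35.4% to 44.9% were as low as these 3, so none stood apart from the rest of the table.

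At Hhex the promoter site (chr19:37434460-37435030, 96 bp upstream) had 6.59 in WT and 6.47 in DKO, a difference of -0.12. The other 2 sites were weak. In a coding exon 2354 bp downstream, the concentrations were 3.66 and 3.19, and in an intron of 1700122C19Rik, 34504 bp downstream, they were 3.99 and 3.47. The low median of Hhex, -0.47, thus came from a site under the minimum, and the summed reads, 125 in WT and 109 in DKO, gave a log2 ratio of -0.20.

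Cer1, itself induced by Nodal signaling in the embryo, had no listed site over its TSS. The nearest (chr4:82886060-82886620, intergenic) is centred 1189 bp upstream, with 67.6 normalized reads in WT and 41.6 in DKO. The difference was -0.70, called lower, and 7.03% of the 7837 sites of like level were as low. This is the window with 2 Gata strings and an Otx2 string. Among the sites at 50 to 500 kb from Cer1 the median was -0.04, with 26 of 44 below 0.

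The remaining Cer1 sites belong to neighbouring genes by position. The strongest, 25611 bp downstream, is the promoter of Zdhhc21 and had 7.80 in WT and 7.63 in DKO. A pair of weak sites in an intron of Frem1 had differences of -0.65 at 48774 bp and 0.24 at 49274 bp upstream, with mean concentrations under the minimum. These 2 are also the members closest to the 50 kb limit. Just outside it was a site 51401 bp downstream of Gata4, with 6.37 in WT and 5.68 in DKO. Another, 53121 bp upstream of Foxa2, had 4.17 in WT and 1.08 in DKO, with a mean concentration of 3.33, under the minimum.

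Compared per kb of site, the WT level of the site nearest to each TSS was 175 reads per kb at Foxa2, 169 at Hhex, 121 at Cer1, 104 at Sox17, 98.5 at Foxa1, 89.7 at Gata6 and 79.3 at Gata4. In DKO the values were 156 at Hhex, 134 at Foxa2, 114 at Sox17, 101 at Foxa1, 85.0 at Gata4, 84.9 at Gata6 and 74.4 at Cer1. Foxa2 thus stood first in WT and second in DKO, and Cer1 moved from the third place to the last. Whether neighbours in either order differ beyond their spread is unknown, since the table gives no spread.

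By position, the differences were smallest at promoters. At the 7 members within 1 kb of any TSS, differences ranged from -0.39 to 0.13 with a median of -0.08, and 0 were called lower, against 3.01% of all such sites at or above the minimum. At 1 to 5 kb, 10 of 11 members were below 0, with a median of -0.47, and 3 of the 8 at or above the minimum, or 37.5%, were called lower, at Foxa1, Foxa2 and Cer1, against 12.2% of all such sites. Over 5 kb from any TSS, 15 of 20 were below 0, with a median of -0.40, and 3 of 15 at or above the minimum, or 20.0%, were called lower, against 15.6% of all such sites. All sites of the table had medians of 0.01 within 1 kb and -0.12 over 5 kb. Of the 6 sites called lower, 5 lay upstream of the gene and 1 downstream, among 14 upstream and 16 downstream members at or above the minimum. The share of all sites called lower on each side of a TSS is not given, so no lean to 1 side can be read from these counts.

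**Figure D4:**
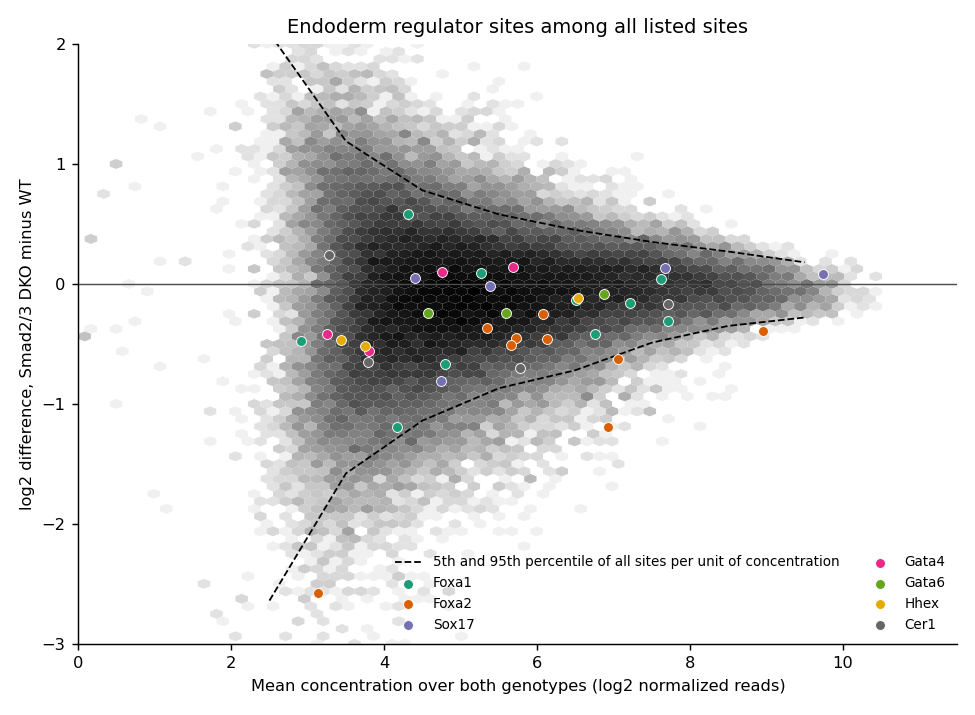
Log2 difference (DKO minus WT) against mean concentration over both genotypes for all listed sites within the axes (grey, darker for more sites on a log scale) and for the 38 members (coloured by gene), with dashed lines at the 5th and 95th percentiles per unit of concentration. The members below the lower line at concentrations over 6 are Foxa2 sites.

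The members were wider than the table as a whole, with a median of 565 bp against 400 bp. They were also richer in G and C, with a median of 55.5% of bases in the central 300 bp against 51.0%. The observed over expected ratio of CpG dinucleotides had a median of 0.57 in the members and 0.29 in all sites, and 0.37 in the 6 called lower. Within the same windows, 20 of 38 members, or 52.6%, held the Smad string CAGAC, against 52.5% of all sites. The Gata string was found in 5 members, or 13.2%, against 10.9%, the Otx2 string in 4, or 10.5%, against 8.71%, and the forkhead string in 3, or 7.89%, against 4.51%. The Sox string, also in 3 members, was less frequent than in all sites, at 7.89% against 13.2%. The T-box string was in 2 members, or 5.26%, against 3.98%. Single matches were found for the FoxH1 string, 2.63% against 1.07%, and for the octamer, 2.63% against 3.16%, the latter 34504 bp downstream of Hhex beside an Otx2 and a Gata string. The Smad palindrome was in 0 members and in 0.224% of all sites. The Otx2 string GGATTA can overlap the end of the FoxH1 string.

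Other genes of the endoderm were examined in 2 lists, which were chosen with earlier results of these data known. Near 10 genes of definitive endoderm and the anterior streak there were 71 sites, with a median difference of -0.02, of which 52.1% were below 0. Of the 57 at or above the minimum, 5 were called lower (8.77%), near Mixl1, Gsc and Foxh1, and 1 was called higher, 1707 bp upstream of Nodal, at 4.98 in WT and 5.86 in DKO. For only 1 of these 5, at Gsc, was the nearest TSS that of the listed gene. Near 17 genes of primitive and visceral endoderm there were 76 sites, with a median of -0.04, of which 53.9% were below 0. Here 3 of 59 were called lower (5.08%), near Afp, Cubn and Lama1, and 5 were called higher (8.47%), near Hnf4a, Cubn and Sparc. With only sites whose nearest TSS was that of the listed gene, 2 were called lower and 3 higher. Against the backgrounds of 12.4% and 5.4% given above, both lists had smaller shares called lower than all sites, and the second had a larger share called higher.

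The lowest medians in these lists were at Gsc, a homeodomain factor of the organizer, at -0.51 over 9 sites, at Dkk1, a secreted Wnt antagonist, at -0.42 over 4 sites, and at Hnf4a, a nuclear receptor of visceral endoderm and liver, at -0.33 over 7 sites. All 4 Dkk1 sites and 8 of 9 Gsc sites were below 0. The highest were at Dab2, an endocytic adaptor of visceral endoderm, at 0.38 over 6 sites, and at Cubn, an endocytic receptor of the same tissue, at 0.22 over 7 sites. The median of -0.34 over the 38 sites of the 7 regulators was thus below those of both lists, and 9 of these 38 sites are those of Foxa2.

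**Figure D5:**
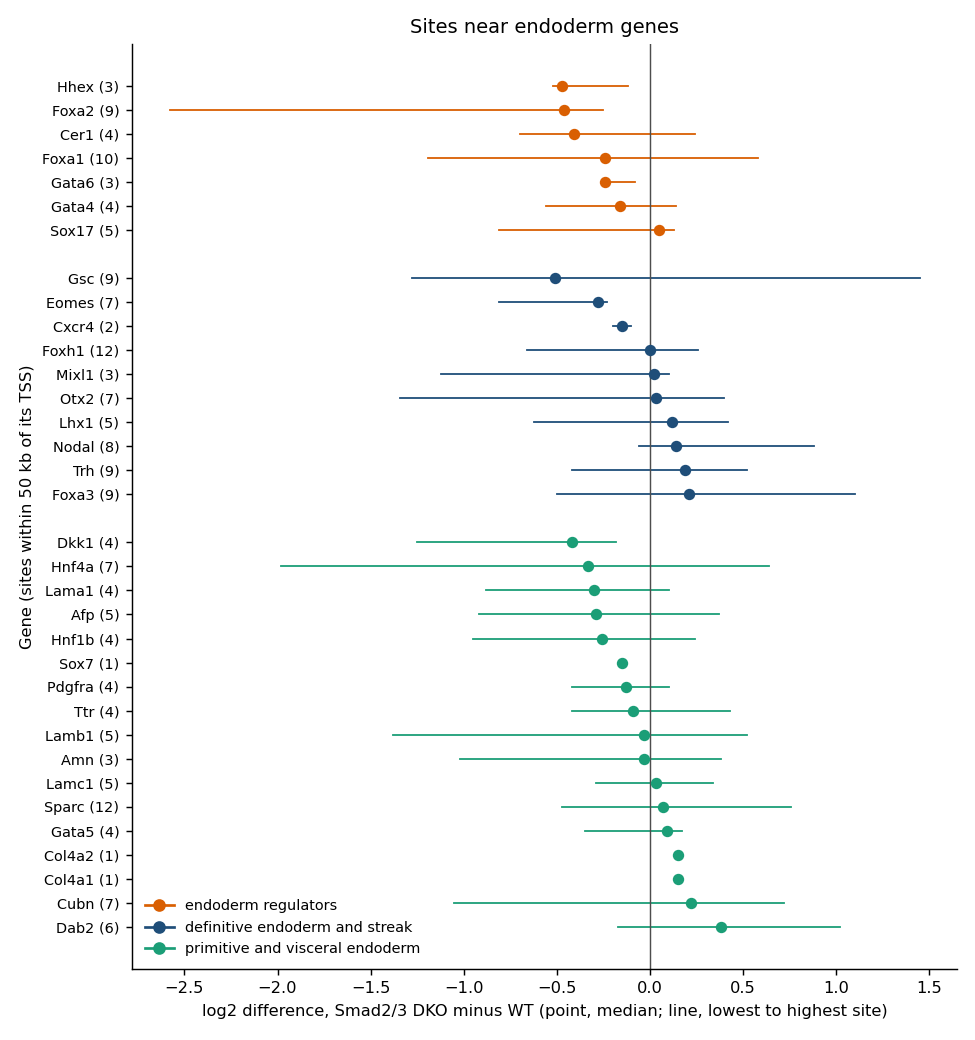
Median (point) and range (line) of the log2 difference (DKO minus WT) over the sites within 50 kb of each gene, with the number of sites in brackets, for the 7 regulators and the 2 lists. Of the 7 regulators 6 have a median below 0, while the medians of the lists fall on both sides of 0, from -0.51 at Gsc to 0.38 at Dab2.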

How the data were processed

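ATAC-seq was performed by the authors on WT and Smad2/3 DKO day 2 EpiLCs, with 3 differentiations of 1 clone per genotype, each from 75000 cells. Per the methods and the processing notes (Bowtie2, SAMtools, DiffBind), paired-end reads were aligned to mm10, non-unique and blacklisted reads and PCR duplicates were discarded, sites were called with DANPOS2 from the triplicates and a control of Tn5-treated genomic DNA, and genotypes were compared with DiffBind. Versions, DiffBind's normalization and any shift of read ends are not given in the sources used here. Centring on the median site would move all differences together, by 0.08. The effect of another scaling of the single libraries cannot be computed from the means per genotype. The authors deposited log2 concentrations, the log2 mean of normalized reads per site over both genotypes and within each. Their own fold, p-value and FDR columns were not used.

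The distance of a site was taken between its midpoint and the gene's closest TSS, from 45756 curated RefSeq transcripts of 26180 genes on GRCm38.p6. Strings were searched on both strands in 300 bp around the midpoint. The table has no value for single libraries, so the test planned for counts per library could not be run, depth per sample is unknown, and p-values, intervals and limits for undetected sites are not given. The named sites are, at each of the 7 genes, the site nearest to the TSS, the site highest in WT, those called, and those with the lowest and highest difference; the rest of the 38 are given for completeness. From the lists, the 3 lowest and 2 highest medians among genes with at least 3 sites are named. The promoters near Foxa2 and the neighbours of the named sites were picked with their values in view. The members and lists were chosen with earlier results of these data known. Alternatives were other minimum levels, fold limits, distances, gene assignments, a centred difference, leaving out each gene and a 500 bp window for strings. The comparison with sites at 50 to 500 kb was added after the data were seen. Scripts were tested on simulated data. Python 3.11.15, numpy 2.4.6, pandas 2.3.3 and matplotlib 3.10.9 were used.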

Additional observations from a re-analysis of the deposited data

How the results depend on the processing

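No paired analysis was possible because the table gives a mean for each genotype without the values of its libraries, and for the same reason no replicate could be left out. The 6 sites called lower became 3 with a mean concentration of at least 5, 2 with a 2-fold limit and 12 with a limit of 0.32 in log2. The share of all sites called is not given for these settings, so these counts have no background beside them. The 0 sites called higher became 1 within 100 kb (at Sox17), 1 with a limit of 0.32 in log2, 1 with all differences centred on the median site, and 1 with the median at 50 to 500 kb from the gene subtracted. In the last 2 settings it was the Foxa1 site 40681 bp downstream, at 0.66 and 0.73. The Foxa2 site 1796 bp upstream was no longer past 1.5-fold in these settings, at -0.55 and -0.22, and the Foxa1 site 4349 bp upstream was at -0.52 in the last. The median at Gata4 turned to 0.12 with the sites at or above a concentration of 4, its log2 ratio of summed reads turned from -0.02 to 0.06 with centring, and the median at Sox17 turned to -0.16 with the surrounding median subtracted. With windows of 500 bp, 8 members held the Gata string, or 21.1%, against 18.9% of all sites. The Sox string was in 5, or 13.2%, against 20.7%, and the T-box string in 4, or 10.5%, against 6.56%. The shares of all sites also rose with the larger window. Of 153 values recomputed under the settings listed first in the methods, 115 kept their direction or call, or for counts stayed within 1.5 times, but several changed in size. The median at Hhex was -0.12 at concentrations of at least 4, that at Gata4 was -0.42 within 10 kb, and the log2 ratio of summed reads at Cer1 was -0.70 within 10 kb. The 5 sites called lower near the definitive endoderm list became 1 with a mean concentration of at least 5, with a 2-fold limit, within 10 kb or with only sites nearest to the gene, and up to 14 with the limit of 0.32. The 3 near the primitive and visceral list ranged from 0 to 15. Sites called higher ranged from 0 to 7 and from 0 to 9 in these lists. These list counts are likewise given without the share of all sites called under each setting. Unknown depth limits all sites, and the weak ones most.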

Other observations

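Beyond the 50 kb windows, 23 sites lay at 50 to 100 kb from the 7 genes, and 21 of them reached the minimum concentration of 4. Of these, 3 were called lower (14.3%) and 1 was called higher (4.76%), near the 12.4% and 5.4% of all sites. The site called higher, 70311 bp upstream of Sox17 and nearest to that gene, had a concentration of 3.47 in WT and 4.94 in DKO, a difference of 1.47. A weaker site 59681 bp upstream of Sox17 had 2.88 in WT and 3.97 in DKO, with a mean concentration under 4. They stand on the same side of Sox17 as the site 46841 bp upstream, which was called lower at -0.81, so neighbouring distal sites at this gene differed in direction. Those called lower were 90776 bp downstream of Foxa1, at -0.72, and 51401 and 80491 bp downstream of Gata4, at -0.69 and -0.62. The Gata4 pair lies nearer to the TSSs of Neil2 and Fdft1.

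At Eomes, a T-box factor needed for definitive endoderm, all 7 sites within 50 kb had a lower mean in DKO, from -0.81 to -0.23 with a median of -0.28, and 0 were called. Besides Foxa2 with 9 and Eomes with 7, the genes of the group and of the lists with at least 3 sites and every site below 0 were Dkk1 with 4, Gata6 with 3 and Hhex with 3. Of all sites 57.4% were below 0, so 3 or 4 such sites do not set a gene apart. The share of all genes with every site below 0 is not given. At Hhex only 1 of the 3 sites reached the minimum. At Nodal only 2 of 8 sites were below 0, and the median was 0.14.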
